A study of Mus musculus with 24 samples.

Results

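The mitochondrial genome of the mouse encodes its own rRNAs, tRNAs and a small set of proteins, and the RNAs read from it are described here in liver with and without the clock gene Bmal1 in hepatocytes. The members are all rows of the deposited count table whose symbol starts with mt-, which gave 28 genes of 35304: 13 protein-coding genes, 2 rRNA genes and 13 tRNA genes. The reference annotation (GENCODE M21, GRCm38) has 37 mitochondrial genes. Among them 9 tRNA genes had no row whose symbol starts with mt- and were not analysed here. They are mt-Tf, mt-Tv, mt-Tl1, mt-Tk, mt-Tg, mt-Tr, mt-Th, mt-Ts2 and mt-Tl2. A filter on low counts kept 24 members for testing, namely all 13 protein-coding genes, both rRNA genes and 9 tRNA genes. The tRNA genes mt-Ta, mt-Tn, mt-Tc and mt-Td did not pass it.

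The study profiled liver total RNA around the day in 24 C57BL/6 mouse samples aged 8 to 12 weeks under night restricted feeding. HepKO samples carried Alb::Cre_+/0 with Bmal1_fl/fl, so that Cre recombinase driven by the albumin promoter removes the floxed part of Bmal1 in hepatocytes, and HepWT samples carried Alb::Cre_0/0 with the same Bmal1_fl/fl alleles. Each genotype was sampled at zeitgeber time (ZT, counted in hours from lights on) 2, 6, 10, 14, 18 and 22, 2 libraries at each time, which makes 12 groups and 12 libraries per genotype. Because all controls lack Cre, an effect of the transgene itself and an effect of losing Bmal1 cannot be told apart in this design. The labels do not say that the 2 replicates of a group are separate animals, so the p-values here reflect the spread among these libraries and nothing wider.

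Mitochondrial DNA is transcribed from both strands into long precursors, and the tRNAs that lie between the other genes are cut out of them to release the rRNAs and mRNAs. The mRNAs encode core subunits of the respiratory chain complexes I, III and IV and of ATP synthase, and the rRNAs form the mitochondrial ribosome that translates them. Liver is rich in mitochondria, whose oxidation of fuels changes with feeding and fasting.

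Total counts ran from 12997689 to 30677807 per library. The 5 shallowest libraries, at 16910415 or fewer, were the HepKO replicate 2 libraries of ZT6, ZT10, ZT14, ZT18 and ZT22, and the other 19 held at least 23583035. The Bmal1 gene, listed as Arntl, ranged from 1.27 to 45.9 CPM (TMM-scaled counts relative to library size) over the HepWT libraries and from 10.3 to 17.7 CPM over the HepKO libraries. Its averaged log2 difference was 0.04 ± 0.07 (SE, adjusted p = 0.71), and a count over the whole gene includes exons outside the floxed part and RNA of other cells, so it does not check the deletion. The summed level of 10 hepatocyte markers was 96936 to 124646 CPM in HepWT and 64209 to 76933 CPM in HepKO, without overlap, and albumin, the largest part of that sum in HepWT, itself fell from 63881 to 24996 CPM (log2 difference -1.36 ± 0.09, adjusted p = 4.31e-09). Of the other 9 markers Apoa2 rose (0.30 ± 0.06) and none fell, and the median of the 10 was -0.01. These are bulk samples, in which fewer cells of a type and less RNA per cell cannot be told apart.

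Several mitochondrial genes have near-identical copies in the nuclear genome, which matters for how their reads can be counted, and 2 stretches are shown for that reason. The first is bases 1054 to 1153 of mt-Co1, the gene of cytochrome c oxidase subunit I, at chrM:6381-6480 on the plus strand, with its copies Gm13340 at chr2:22588495-22588594 and Gm29216 at chr1:24616098-24616197, both on the minus strand. Capitals mark bases of a copy that differ from mt-Co1. All stretches are read 5′ to 3′ from GENCODE M21 transcripts (GRCm38).
mt-Co1: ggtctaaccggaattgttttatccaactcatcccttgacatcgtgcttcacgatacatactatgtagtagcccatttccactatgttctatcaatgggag
Gm13340: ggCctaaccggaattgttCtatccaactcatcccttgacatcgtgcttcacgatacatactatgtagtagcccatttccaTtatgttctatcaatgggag
Gm29216: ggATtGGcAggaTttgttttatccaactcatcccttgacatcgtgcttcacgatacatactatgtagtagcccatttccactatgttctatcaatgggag
Gm13340 matched mt-Co1 with 37 differences over 1545 bases, of which 3 lie in this stretch. Gm29216 matched it with 6 differences over 492 bases, all of them in this stretch.

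The second stretch is part of mt-Co3, the gene of cytochrome c oxidase subunit III, at chrM:8707-8806 on the plus strand, with its copy Gm28437 at chr1:24613772-24613871 on the minus strand. It has no capitals because no base differs.
mt-Co3: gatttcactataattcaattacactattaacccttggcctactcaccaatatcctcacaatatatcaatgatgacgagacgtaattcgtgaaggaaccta
Gm28437: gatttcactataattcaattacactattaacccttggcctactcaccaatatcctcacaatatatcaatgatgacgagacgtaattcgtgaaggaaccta
Gm28437 matched mt-Co3 over all 783 of its bases. A read of 100 bases from such a stretch has at least 2 identical places of origin, and how the authors counted reads with several places is a setting not given in the sources used here.

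The 4 tRNA genes that passed the test for a genotype difference are shown because each is shorter than 1 read of 100 bases. They are mt-Ti (isoleucine, chrM:3706-3774), mt-Tw (tryptophan, chrM:4950-5016), mt-Tm (methionine, chrM:3845-3913) and mt-Tt (threonine, chrM:15289-15355), all on the plus strand. Capitals mark bases that also belong to an annotated neighbour, mt-Nd1 and mt-Tq for mt-Ti and mt-Nd2 for mt-Tw.
mt-Ti: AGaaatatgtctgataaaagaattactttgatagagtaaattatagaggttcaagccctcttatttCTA
mt-Tw: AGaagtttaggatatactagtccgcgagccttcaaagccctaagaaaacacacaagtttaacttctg
mt-Tm: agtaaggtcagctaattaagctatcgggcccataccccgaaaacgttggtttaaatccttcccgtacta
mt-Tt: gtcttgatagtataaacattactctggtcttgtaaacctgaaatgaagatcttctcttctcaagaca
The 22 annotated tRNA genes are 59 to 75 bases long. A read of 100 bases therefore cannot lie inside any of them, and counts of these rows include sequence of a neighbour or of an unprocessed precursor wherever the read is not shorter than the gene.

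Mitochondrial mRNAs took a smaller share of the library in HepKO than in HepWT, while the rRNAs did not. In HepWT the 13 mRNAs held from 2.05% to 2.55% of all counts, with a median of 2.30% and a mean of 2.29% ± 0.15 (SD, n = 12). In HepKO they held from 1.57% to 1.93%, with a median of 1.80% and a mean of 1.77% ± 0.11 (SD, n = 12). The 2 ranges did not overlap, and the ratio of the means was 0.771.

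The 2 rRNAs went the other way in their means, with overlapping ranges. Their share was 8.31% ± 1.05 in HepWT, from 6.67% to 9.99%, and 9.38% ± 1.03 in HepKO, from 7.81% to 11.7% (SD, n = 12 each). Part of this range went with the shallow libraries: the 5 shallow HepKO libraries lay between 9.06% and 11.7% and the other 7 between 7.81% and 9.50%. Without the 5 the HepKO mean was 8.82%. The library kit removes rRNA before sequencing, so the share of these rows is what the depletion left, and whether depletion was equal between genotypes was not tested. A list of nuclear noncoding RNAs and depletion residue had 4 tested genes, Malat1, Neat1, Rny1 and Rny3, none of them an rRNA. None of the 4 passed in edgeR and none had an unadjusted p below 0.05, with a median of 0.03 and sums of 2623 to 5411 CPM in HepWT and 3544 to 5076 CPM in HepKO. DESeq2 was not counted over this list. The tRNA genes held 0.0017% ± 0.00025 of counts in HepWT and 0.0014% ± 0.00019 in HepKO (SD, n = 12 each), with overlapping ranges.

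Since rRNA made up most of the mitochondrial counts, the summed share of all 28 genes overlapped between genotypes, at 10.6% ± 1.10 in HepWT and 11.2% ± 1.03 in HepKO. The number of rRNA counts per 100 mRNA counts separated them without overlap. It ran from 295 to 417 in HepWT, with a mean of 364 ± 46.1, and from 435 to 644 in HepKO, with a mean of 534 ± 68.0. In the 7 deeper HepKO libraries it ran from 435 to 604, so the gap between genotypes was there without the shallow libraries too. With the rRNA rows left out of the library total, the mRNAs still held 2.50% in HepWT and 1.95% in HepKO, again without overlap. These are sums over the members and carry no test of their own.

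**Figure D1:**
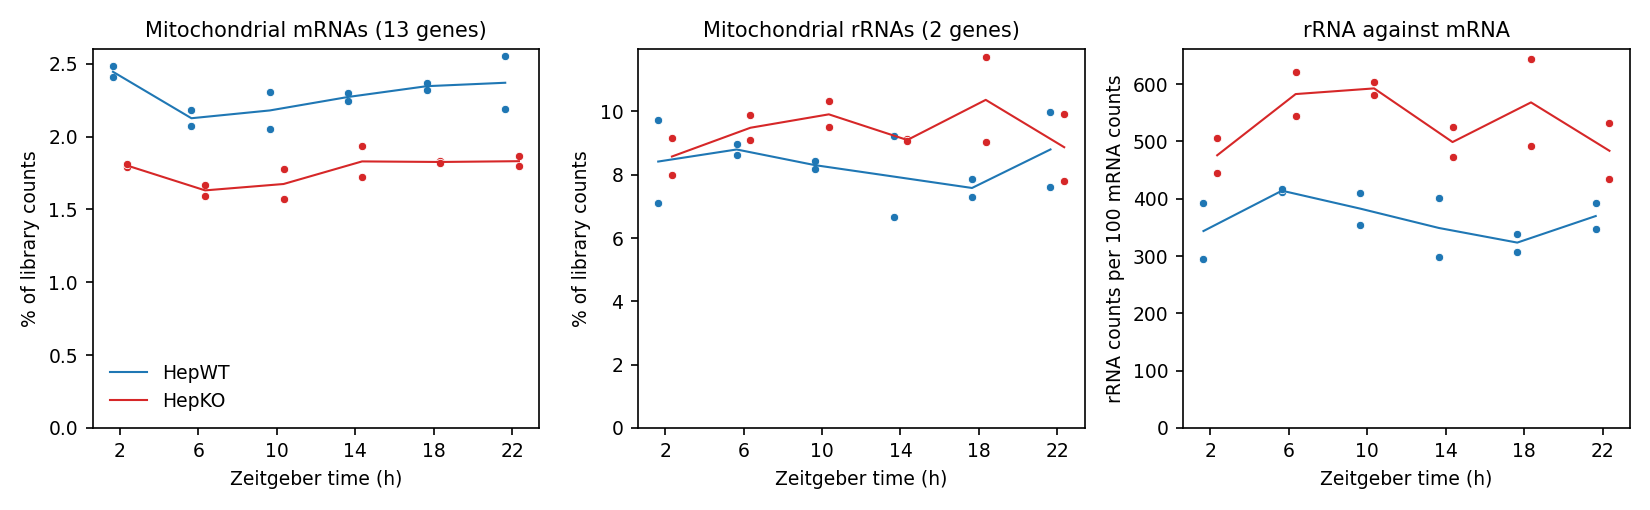
Share of library counts in the 13 mitochondrial mRNAs (left) and the 2 rRNAs (middle), in percent, and rRNA counts per 100 mRNA counts (right), against zeitgeber time in hours. Points are single libraries, 2 per genotype and time, and lines join the means; the HepKO points lie below all HepWT points on the left and above all of them on the right, and overlap them in the middle.

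The lower mRNA share was present at every time sampled. At ZT2 the means of 2 libraries were 2.44% in HepWT and 1.80% in HepKO, at ZT6 2.13% and 1.63%, and at ZT10 2.18% and 1.67%. At ZT14 they were 2.27% and 1.83%, at ZT18 2.35% and 1.83%, and at ZT22 2.37% and 1.83%. In both genotypes the lowest of these means was that of ZT6.

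Gene by gene, 13 of the 24 tested members fell and 1 rose in HepKO in the difference averaged over the 6 times (edgeR's quasi-likelihood test, Benjamini-Hochberg adjusted p below 0.05). Among all 17275 genes tested 13.3% fell and 13.2% rose, 26.5% in either direction. The median log2 difference was -0.40 over the 24 members and -0.01 over all genes. By class, 10 of 13 mRNAs fell with a median of -0.42, and 3 of 9 tRNAs fell and 1 rose with a median of -0.19. Neither of the 2 rRNAs passed in edgeR, none at an unadjusted p below 0.05 and none in DESeq2, with a median of 0.17.

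**Figure D2:**
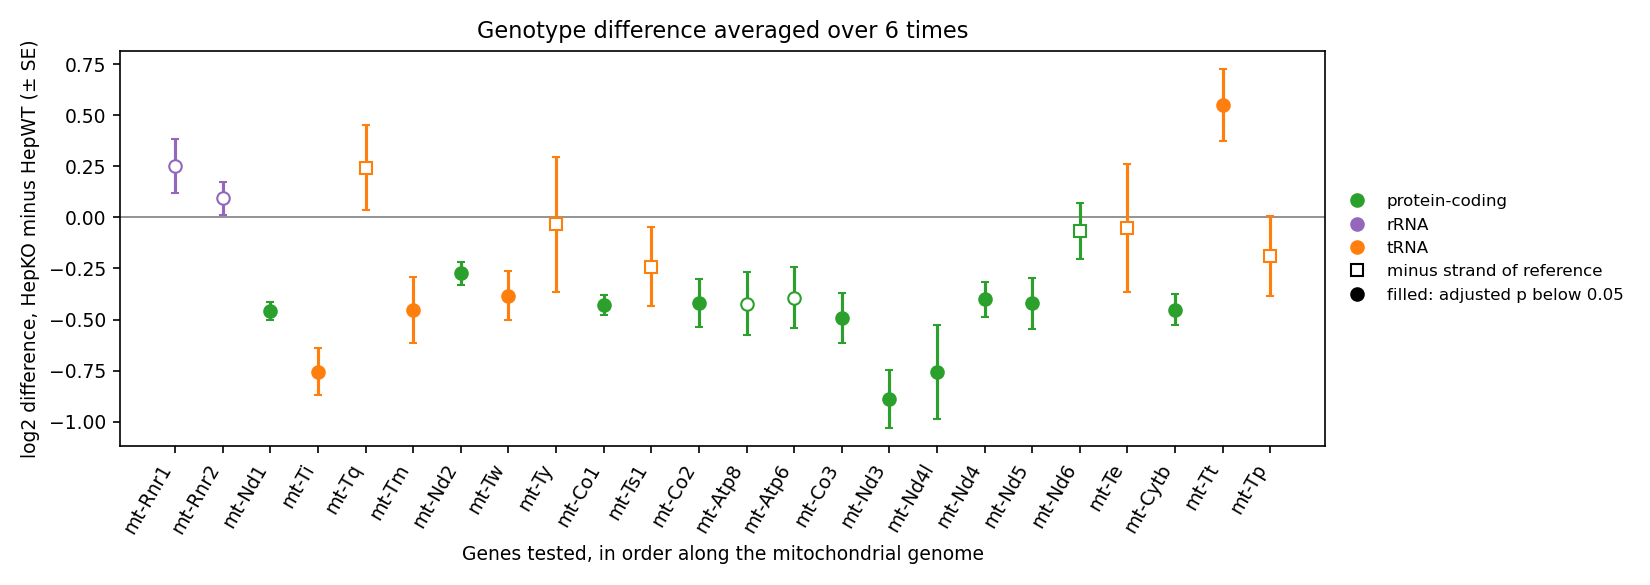
Genotype difference (log2, HepKO minus HepWT, averaged over 6 times) of the 24 tested genes in their order along the mitochondrial genome, with bars of 1 SE. Colours give the class, squares are genes on the minus strand of the reference and filled symbols passed an adjusted p below 0.05; most plus-strand mRNAs lie near -0.4, the rRNAs lie above 0 and all 6 minus-strand genes are open symbols.

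Complex I, which feeds electrons from NADH into the chain, has 7 mitochondrial subunits, and 6 of their mRNAs fell. mt-Nd1 ranged from 2005 to 2432 CPM in HepWT, with a median of 2296, and from 1398 to 1836 CPM in HepKO, with a median of 1676. All 12 HepKO libraries lay below all 12 HepWT libraries, and both HepKO libraries lay below both HepWT libraries at each of the 6 times. The averaged log2 difference was -0.46 ± 0.05 (SE, adjusted p = 8.71e-07). mt-Nd1 has no stretch of 100 bases in an annotated nuclear transcript. Copies outside the annotation, or with a mismatch in each such stretch, were not searched for.

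mt-Nd2 fell less. It ranged from 463 to 599 CPM in HepWT, with a median of 529, and from 377 to 541 CPM in HepKO, with a median of 436, so the ranges overlapped. Its log2 difference was -0.27 ± 0.05 (adjusted p = 0.0011). Its share of the mRNA counts was 2.31% ± 0.23 in HepWT and 2.56% ± 0.17 in HepKO.

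mt-Nd4 ranged from 430 to 631 CPM in HepWT, with a median of 504, and from 298 to 499.7 CPM in HepKO, with a median of 408. Its log2 difference was -0.40 ± 0.09 (adjusted p = 0.0022). mt-Nd5 ranged from 383 to 687 CPM in HepWT, with a median of 464, and from 263 to 489.8 CPM in HepKO, with a median of 367, at a log2 difference of -0.42 ± 0.12 (adjusted p = 0.016). Both overlapped between genotypes, mt-Nd4 with lower HepKO libraries at 5 of 6 times and mt-Nd5 at 3. mt-Nd5 lost its call when only 1 replicate number of HepWT was kept, with replicate 1 (adjusted p = 0.058) and with replicate 2 (adjusted p = 0.073).

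mt-Nd3 and mt-Nd4l were the least counted of the complex I mRNAs and showed the largest falls among the mRNAs tested. mt-Nd3 had a median of 5.83 CPM in HepWT, from 3.66 to 9.08, and of 3.28 CPM in HepKO, from 1.86 to 5.89, with a log2 difference of -0.89 ± 0.14 (adjusted p = 1.5e-04). mt-Nd4l had a median of 0.554 CPM in HepWT and 0.306 CPM in HepKO, with a log2 difference of -0.76 ± 0.23 (adjusted p = 0.021), and it held 292 counts over all 24 libraries. It lost the call without the 5 shallow libraries (adjusted p = 0.11), with HepWT replicate 2 alone (-0.53, adjusted p = 0.21) and without 3 single libraries in turn, HepKO ZT10 replicate 1, HepWT ZT10 replicate 1 and HepWT ZT18 replicate 2, at log2 differences of -0.69, -0.62 and -0.68. Both mRNAs are almost wholly shared with nuclear copies, as described below.

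mt-Nd6, the complex I subunit that is the lone mRNA read from the other strand, did not follow the rest. It ranged from 27.7 to 69.7 CPM in HepWT, with a median of 47.5, and from 24.05 to 58.6 CPM in HepKO, with a median of 47.1. Its log2 difference was -0.07 ± 0.14 (adjusted p = 0.78), with the sign turning in 3 of the 24 fits that leave out 1 library and with HepWT replicate 1 alone. Its share of mRNA counts was 0.203% ± 0.037 in HepWT and 0.263% ± 0.047 in HepKO. mt-Nd6 overlaps the end of mt-Nd5 by 14 bases on the opposite strand, and with a strand setting not given in the sources used here, reads of the opposite strand in its row cannot be told apart from its own.

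Complex III, which passes electrons from ubiquinol to cytochrome c, has 1 mitochondrial subunit, cytochrome b. mt-Cytb ranged from 1772 to 2941 CPM in HepWT, with a median of 2176, and from 1232 to 2018 CPM in HepKO, with a median of 1595. Both HepKO libraries lay below both HepWT libraries at 5 of 6 times, and the ranges overlapped. The log2 difference was -0.45 ± 0.08 (adjusted p = 2.3e-04).

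Complex IV, cytochrome c oxidase, which hands electrons to oxygen, has 3 mitochondrial subunits, and all 3 mRNAs fell. mt-Co1 alone held 73.3% ± 0.79 of the mRNA counts in HepWT and 73.3% ± 0.94 in HepKO, so the summed share described above mostly follows this gene. It ranged from 15484 to 19415 CPM in HepWT, with a median of 17019, and from 11303.5 to 14130 CPM in HepKO, with a median of 12692. The ranges did not overlap, HepKO was below HepWT at all 6 times, and the log2 difference was -0.43 ± 0.05 (adjusted p = 5.4e-06).

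mt-Co3 ranged from 55.4 to 100.7 CPM in HepWT, with a median of 71.1, and from 33.4 to 74.9 CPM in HepKO, with a median of 50.9, at a log2 difference of -0.49 ± 0.12 (adjusted p = 0.0054). mt-Co2 ranged from 27.8 to 53.8 CPM in HepWT, with a median of 37.0, and from 18.4 to 41.6 CPM in HepKO, with a median of 28.5, at a log2 difference of -0.42 ± 0.12 (adjusted p = 0.014). The ranges overlapped in both genes. Without the 5 shallow libraries neither passed, at log2 differences of -0.45 (adjusted p = 0.057) for mt-Co3 and -0.35 (adjusted p = 0.14) for mt-Co2. mt-Co2 did not pass with HepWT replicate 2 alone either (-0.37, adjusted p = 0.052).

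ATP synthase, which uses the proton gradient to make ATP, has 2 mitochondrial subunits, and neither mRNA passed the test. mt-Atp6 had medians of 19.9 CPM in HepWT and 14.4 CPM in HepKO and a log2 difference of -0.39 ± 0.15 (adjusted p = 0.062). mt-Atp8 had medians of 6.14 CPM in HepWT and 4.71 CPM in HepKO and a log2 difference of -0.42 ± 0.15 (adjusted p = 0.051). These values lie close to those of the mRNAs that passed, and DESeq2 called both (adjusted p = 0.030 for mt-Atp6 and 0.034 for mt-Atp8). The 2 genes overlap by 43 bases on the same strand, where a read cannot be given to one of them alone.

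mt-Nd1 and mt-Co1 were the 2 members whose 12 HepKO libraries all lay below the 12 HepWT libraries, and none lay wholly above. Of all 17275 genes 0.480% lay wholly below in this way and 0.949% wholly above.

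**Figure D3:**
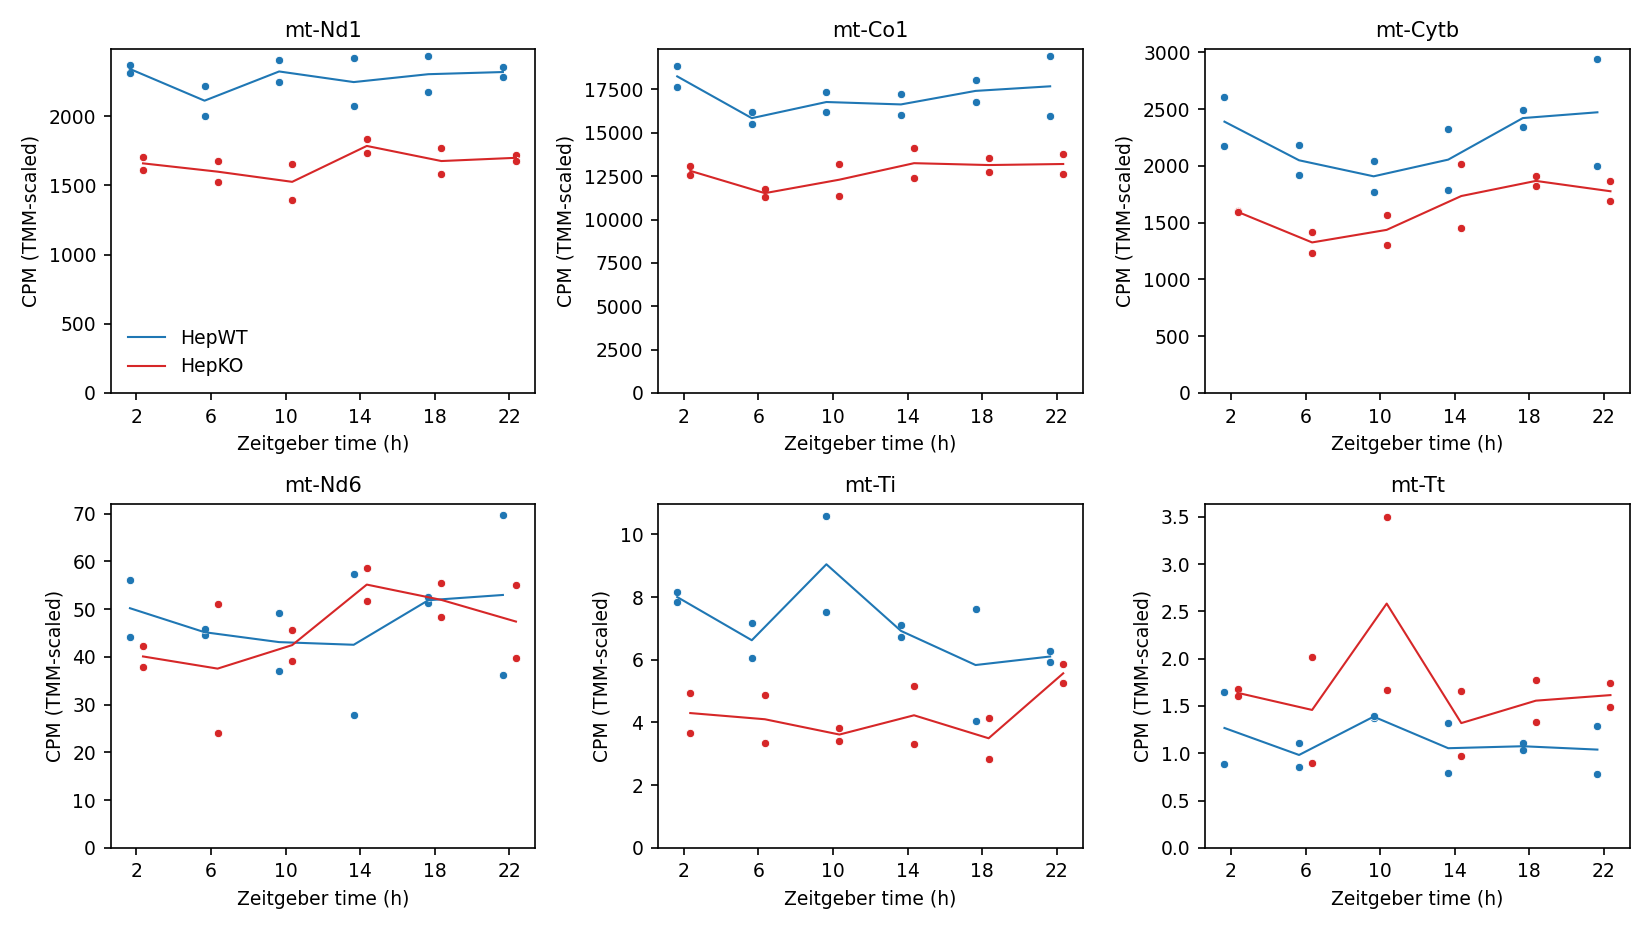
TMM-scaled CPM against zeitgeber time in hours for mt-Nd1, mt-Co1, mt-Cytb, mt-Nd6, mt-Ti and mt-Tt. Points are single libraries, 2 per genotype and time, and lines join their means; HepKO lies below HepWT at all 6 times in mt-Nd1 and mt-Co1, while the genotypes cross in mt-Nd6 and HepKO lies above HepWT in the means of mt-Tt.

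Compared per length, the counted levels of the mRNAs were very unequal. mt-Co1 stood at 9617 ± 1407 RPKM (CPM per kilobase of gene, without TMM; SD, n = 24 libraries), mt-Nd1 at 2048 ± 314 and mt-Cytb at 1671 ± 337. mt-Nd2 stood at 471 ± 52.4, mt-Nd4 at 329 ± 61.5 and mt-Nd5 at 235 ± 56.5. The remaining 7 were lower: mt-Nd6 at 89.8 ± 18.8, mt-Co3 at 79.97 ± 20.9, mt-Co2 at 50.6 ± 13.2, mt-Atp6 at 25.7 ± 7.21, mt-Atp8 at 25.4 ± 6.81, mt-Nd3 at 13.97 ± 5.51 and mt-Nd4l at 1.61 ± 0.70. mt-Atp6 and mt-Atp8 did not differ beyond their spread, nor did mt-Nd6 from mt-Co3, whereas mt-Co1 stood far above every other mRNA. mt-Co1 and mt-Co3, subunits of the same enzyme read from the same strand, thus stood 2 orders of magnitude apart in the table.

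The low values went with sequence shared with annotated nuclear transcripts in 5 of these 7 genes. Of all stretches of 100 bases in the gene, 99.9% in mt-Co3, 99.5% in mt-Co2, 99.5% in mt-Atp6, 98.5% in mt-Nd4l and 97.6% in mt-Nd3 also occurred in an annotated nuclear transcript. The share was 60.8% in mt-Nd4, 30.8% in mt-Co1 and 3.19% in mt-Nd2, and 0% in mt-Nd1, mt-Nd5, mt-Nd6, mt-Cytb, mt-Atp8 and both rRNAs. mt-Atp8 and mt-Nd6 were low without such a stretch in an annotated nuclear transcript. For mt-Atp8 this does not show that no copy exists. It lies between mt-Co2 and mt-Atp6, whose copies lie near each other at chr1:24614885-24615565 and chr1:24613974-24614651. Its last 43 bases also belong to mt-Atp6 and match that copy. Sequence outside annotated transcripts was not searched. The treatment of such reads was a step not given in the sources used here, and its part in the low levels was not tested.

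**Figure D4:**
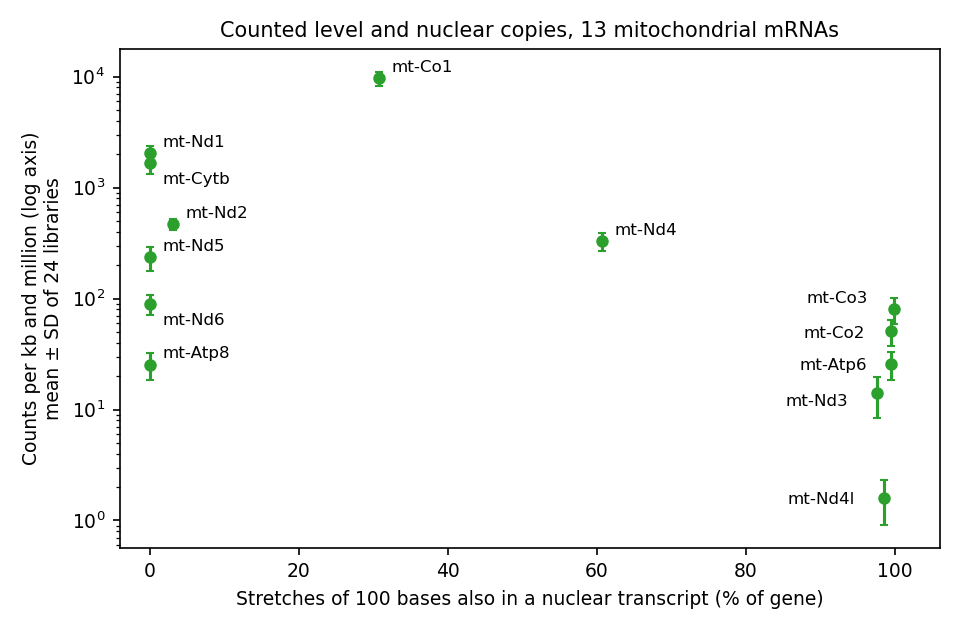
Counted level per kilobase and library depth, in RPKM (log axis, mean ± SD of 24 libraries) of the 13 mRNAs against the percent of their stretches of 100 bases that also occur in an annotated nuclear transcript. The 5 genes above 97% lie between 1.61 and 79.97, and the genes at 0% range from 25.4 to 2048. The lowest gene at 0% is mt-Atp8, whose last 43 bases match the copy of mt-Atp6.

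The nuclear copies were themselves counted, often more than the mitochondrial gene. Gm28437, the copy of mt-Co3, held 112702 counts against 38201 for mt-Co3 over the 24 libraries. Gm28661, the copy of mt-Co2, held 51299 against 21079, Gm10925 held 47706 against 10648 for mt-Atp6, and Gm28438 held 15961 against 3004 for mt-Nd3. The sequences of Gm28661, Gm10925, Gm28437, the mt-Nd4l copy Gm10222 and the mt-Nd4 copy Gm28439 matched their mitochondrial gene at 100% of aligned bases, and Gm28438 had 1 difference in 345. All of these lie on chr1 between bases 24611535 and 24615565.

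The copies moved like the genes they match. Of 10 annotated copies tested, 9 fell in HepKO, beside 13.3% of all genes, with a median log2 difference of -0.45. Gm28438 went from 33.7 ± 7.07 to 18.2 ± 4.58 CPM (SD, n = 12 each; log2 difference -0.89 ± 0.13, adjusted p = 4.63e-05) beside -0.89 for mt-Nd3, and Gm28437 from 218 ± 45.6 to 152 ± 31.0 CPM (-0.51 ± 0.11, adjusted p = 0.0023) beside -0.49 for mt-Co3. Gm13339, a copy of mt-Nd2, did not pass (-0.39 ± 0.16, adjusted p = 0.085). Whether reads in these rows came from nuclear or mitochondrial RNA cannot be told apart from the table. With the counts of the copies added to their mitochondrial gene, a step chosen after the data were seen, mt-Atp6 passed too (log2 difference -0.40, adjusted p = 0.026), and mt-Nd3 stayed at -0.89 (adjusted p = 4.32e-05).

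The rRNAs were the most counted members, even after depletion. mt-Rnr2, the rRNA of the large ribosomal subunit, stood at 46104 ± 5190 RPKM, and mt-Rnr1, that of the small subunit, at 16256 ± 3665 (SD, n = 24). mt-Rnr1 ranged from 10098 to 19928 CPM in HepWT, with a median of 13678.5, and from 11836 to 24722 CPM in HepKO, with a median of 16194. Its log2 difference was 0.25 ± 0.13 (adjusted p = 0.18), and it was 0.07 without the 5 shallow libraries (adjusted p = 0.81). With no filter on low counts the value was 0.24 and passed (adjusted p = 1.99e-06), and the cause of that change was not tested. mt-Rnr2 ranged from 54364 to 83569 CPM in HepWT and from 63456.5 to 93799 CPM in HepKO, with a log2 difference of 0.09 ± 0.08 (adjusted p = 0.44). Both overlapped widely between genotypes.

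The 2 rRNAs lie next to each other, separated by 1 tRNA gene, and their ratio also varied between libraries. mt-Rnr2 held 5.08 ± 0.56 counts per count of mt-Rnr1 in HepWT and 4.55 ± 0.49 in HepKO (SD, n = 12 each), from 4.19 to 6.05 and from 3.68 to 5.36. Within HepKO, mt-Rnr1 was higher in replicate 2 than in replicate 1 by 0.39 ± 0.17 on the log2 scale, which did not pass (unadjusted p = 0.032), beside 0.09 ± 0.17 in HepWT. Between replicate numbers none of the 24 members passed in either genotype, with 1 at an unadjusted p below 0.05 in each, and DESeq2 was not run on that comparison. Of all genes 0.793% were higher and 0.631% lower in replicate 2 of HepWT, and 0% in either direction in HepKO.

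The tRNA rows were sparse and did not move as a group. mt-Ti, the most counted with 3421 counts in all, ranged from 4.06 to 10.6 CPM in HepWT, with a median of 7.16, and from 2.83 to 5.88 CPM in HepKO, with a median of 3.99. Both HepKO libraries lay below both HepWT libraries at 5 of 6 times, and the log2 difference was -0.75 ± 0.12 (adjusted p = 1.06e-04). The gene begins in the last 2 bases of mt-Nd1, which fell too.

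mt-Tw and mt-Tm also fell. mt-Tw, which begins in the last 2 bases of mt-Nd2, had medians of 2.68 CPM in HepWT and 2.24 CPM in HepKO, with a log2 difference of -0.38 ± 0.12 (adjusted p = 0.025). mt-Tm had medians of 0.713 CPM in HepWT and 0.515 CPM in HepKO, with a log2 difference of -0.45 ± 0.16 (adjusted p = 0.047). Neither call was firm: mt-Tm lost it in 18 of the 24 fits that leave out 1 library (values from -0.55 to -0.37), keeping it only without HepWT replicate 2 of ZT2, ZT6 or ZT18, HepWT ZT22 replicate 1, HepKO ZT14 replicate 1 or HepKO ZT22 replicate 2. mt-Tw lost it in 9 (values from -0.44 to -0.32), namely without HepWT ZT6 replicate 1, HepWT replicate 2 of ZT2, ZT10, ZT14 or ZT18, HepKO replicate 2 of ZT2, ZT6 or ZT18, or HepKO ZT22 replicate 1. Without the 5 shallow libraries neither passed, with adjusted p-values of 0.15 for mt-Tm and 0.21 for mt-Tw. Library totals ended both calls too (0.075 and 0.054), as did keeping HepWT replicate 1 alone (0.069 and 0.20). The call of mt-Tm also ended with HepWT replicate 2 alone (adjusted p = 0.32), with no filter on low counts (0.15) and in DESeq2 (0.15).

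mt-Tt was the 1 member that rose. It ranged from 0.784 to 1.65 CPM in HepWT, with a median of 1.11, and from 0.899 to 3.50 CPM in HepKO, with a median of 1.66. The highest value was that of HepKO ZT10 replicate 2, a shallow library, and the ranges overlapped. Its log2 difference was 0.55 ± 0.18 (adjusted p = 0.030), and it did not pass without the 5 shallow libraries (0.41, adjusted p = 0.15) or with HepWT replicate 1 alone (0.40, adjusted p = 0.24). Leaving out 1 library ended the call in 10 of 24 fits, with values from 0.42 to 0.64 over all 24. The 10 were those without HepWT ZT6 replicate 1, HepWT replicate 2 of ZT2, ZT14, ZT18 or ZT22, HepKO ZT6 replicate 1, or HepKO replicate 2 of ZT10, ZT14, ZT18 or ZT22. The gene follows mt-Cytb on the same strand without a base between them, while mt-Cytb fell.

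The other 5 tested tRNAs lie on the minus strand and did not pass. Their log2 differences were 0.24 ± 0.21 for mt-Tq (glutamine), -0.24 ± 0.20 for mt-Ts1 (serine), -0.19 ± 0.20 for mt-Tp (proline), -0.05 ± 0.31 for mt-Te (glutamate) and -0.03 ± 0.33 for mt-Ty (tyrosine). mt-Te and mt-Ty, at 158 and 137 counts in all, changed sign with the library left out. With mt-Nd6 this makes 0 of 6 minus-strand members called in edgeR, 0 at an unadjusted p below 0.05 and 0 in DESeq2, at a median of -0.06. Of the 18 plus-strand members 14 were called in edgeR, at a median of -0.42. Over all genes 26.5% were called in either direction, and with 6 members 0 calls is not far from that share. As the strand setting was not given in the sources used here, plus-strand reads in the minus-strand rows cannot be told apart. The difference between strands was not tested, and the 5 minus-strand tRNAs held 137 to 1322 counts each in all, beside 27618 for mt-Nd6.

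The 4 untested tRNA genes held 49 counts for mt-Tc (cysteine), 28 for mt-Ta (alanine), 2 for mt-Td (aspartate) and 0 for mt-Tn (asparagine) over the 24 libraries. A count of 0 over 590547971 counts allows up to 0.00508 CPM at 3 counts, for counting error only.

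At single times, where 2 libraries stand against 2, most falls came at ZT10. There 7 members fell, mt-Nd1, mt-Nd2, mt-Nd3, mt-Co1, mt-Co2, mt-Co3 and mt-Ti, while of all genes 3.98% fell and 3.73% rose. At ZT2 mt-Nd1 and mt-Co1 fell, while 0.915% of all genes fell and 0.944% rose. The same 2 genes fell at ZT6, while 2.41% of all genes fell and 2.55% rose, and at ZT18 mt-Nd1 fell, while 1.69% fell and 2.08% rose. No member rose at any of these times. At ZT14, where 3.04% of all genes fell and 4.60% rose, and at ZT22, where 0.509% fell and 0.839% rose, no member passed in edgeR, with 4 and 5 members at an unadjusted p below 0.05. DESeq2 was not run at single times.

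The log2 differences of mt-Nd1 were -0.50, -0.40, -0.61, -0.33, -0.46 and -0.45 from ZT2 to ZT22 in order, and those of mt-Co1 were -0.51, -0.46, -0.45, -0.33, -0.41 and -0.42. Those of mt-Nd3 were -1.75 at ZT10 and between -0.86 and -0.42 at the other 5 times. All 13 mRNAs lay below 0 at ZT2, ZT6 and ZT10, 11 of 13 at ZT14, and 12 of 13 at ZT18 and ZT22. No member passed the test for an interaction of genotype with time in edgeR, none at an unadjusted p below 0.05 and none in DESeq2, beside 1.12% of all genes. The larger number of calls at ZT10 therefore does not stand for a difference between times that passed this test.

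Few members passed a test for change over the day. In HepWT no member passed the test for a 24 h rhythm in edgeR, 1 did at an unadjusted p below 0.05 and 1 in DESeq2, beside 30.4% of all genes. In HepKO 1 member passed, beside 14.3% of all genes. It was mt-Cytb, with a fitted amplitude of 0.24 (log2, mean to peak), a peak at ZT 18.9 and an adjusted p of 0.043. In HepWT mt-Cytb had an amplitude of 0.20 with a peak at ZT 21.9 and an adjusted p of 0.064.

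The difference of rhythm between genotypes did not pass for mt-Cytb (adjusted p = 0.62). For rhythm differences no member passed in edgeR, none at an unadjusted p below 0.05 and none in DESeq2, beside 1.49% of all genes. The rhythm call of mt-Cytb in HepKO ended without the 5 shallow libraries, where such calls over all genes dropped from 2471 to 173. It also ended in 9 of the 24 fits that leave out 1 library. The HepWT libraries left out there were ZT2 replicate 2 and ZT6 replicate 1. The HepKO libraries were both of ZT2, both of ZT6, ZT10 replicate 1, and replicate 2 of ZT18 and ZT22. In HepWT 1 member passed without HepWT replicate 2 of ZT14 or ZT22, or without HepKO ZT14 replicate 1. The amplitudes of the 13 mRNAs lay between 0.03 and 0.20 in HepWT and between 0.04 and 0.37 in HepKO. Larger fitted swings that did not pass were those of mt-Tp in HepKO (amplitude 0.54, adjusted p = 0.14) and of mt-Te in HepWT (amplitude 0.48, adjusted p = 0.40).

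Genes of the nucleus that make, process and translate mitochondrial RNA were looked at as lists beside the members, whose median was -0.40. The counts of each list stand beside 13.2% of all tested genes that rose and 13.3% that fell. Of 10 transcription genes 3 fell, with a median log2 difference of 0.03. They included Tfam, which packages mitochondrial DNA and activates its promoters (-0.10 ± 0.03, adjusted p = 0.023), and Mterf4 (-0.14 ± 0.04, adjusted p = 0.022). Of 23 genes of RNA processing and stability 3 rose and 3 fell, with a median of 0.01. Slirp, the partner of Lrpprc in keeping mitochondrial mRNAs stable, rose by 0.14 ± 0.04 (adjusted p = 0.021), and Rexo2, an exonuclease of short RNA, by 0.26 ± 0.05 (adjusted p = 6.67e-04). Fastk, which binds mt-Nd6 RNA, went from 24.1 ± 2.86 to 20.1 ± 2.26 CPM (log2 difference -0.26 ± 0.04, adjusted p = 1.71e-04), and Angel2 changed by -0.21 ± 0.05 (adjusted p = 0.0043).

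Among genes that modify rRNA or assemble the ribosome, 2 of 13 rose and 1 fell, with a median of 0.02. Mettl15, a methyltransferase of the small-subunit rRNA, rose by 0.47 ± 0.12 (adjusted p = 0.0075), and Rpusd3 by 0.20 ± 0.06 (adjusted p = 0.019), while the gene that fell was Mterf4, which is in both lists. Of 22 genes that charge tRNAs, 9 rose, with a median of 0.07. Nars2 went from 26.2 ± 2.77 to 33.7 ± 2.57 CPM (0.37 ± 0.04, adjusted p = 3.53e-06) and Fars2 from 24.6 ± 2.38 to 30.9 ± 2.07 CPM (0.33 ± 0.04, adjusted p = 4.2e-06).

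Of 12 translation factors 1 rose and 3 fell, with a median of 0.02. The elongation factor Gfm1 went from 100.7 ± 8.79 to 81.4 ± 6.24 CPM (log2 difference -0.31 ± 0.03, adjusted p = 2.49e-06), and the initiation factor Mtif3 changed by -0.32 ± 0.04 (adjusted p = 3.51e-05). The recycling factor Mrrf rose by 0.13 ± 0.04 (adjusted p = 0.033). Of 77 genes listed as those of mitochondrial ribosomal proteins 12 rose and 4 fell, with a median of 0.04. Whether each product is part of the ribosome was not checked here. Mrps18a (0.32 ± 0.04) and Mrps10 (0.26 ± 0.04) rose, and Mrps21 (-0.20 ± 0.05) and Mrps36 (-0.29 ± 0.07) fell.

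Of 12 genes that maintain mitochondrial DNA 4 rose and 1 fell, with a median of 0.07. Top1mt, its topoisomerase, went from 18.7 ± 2.50 to 25.8 ± 2.17 CPM (0.47 ± 0.04, adjusted p = 3.69e-07), Primpol rose by 0.37 ± 0.07 (adjusted p = 4.97e-04), and Polg2, the accessory subunit of its polymerase, changed by -0.28 ± 0.07 (adjusted p = 0.0069). RNA levels do not show the number of mitochondrial genomes, which was not measured. Of 11 regulators of mitochondrial biogenesis and quality 2 rose and 4 fell, with a median of -0.10. Clpx, a chaperone of the mitochondrial matrix, went from 206 ± 122 to 400 ± 41.2 CPM (1.25 ± 0.04, adjusted p = 1.15e-12) and the protease Lonp1 from 125 ± 4.26 to 139 ± 5.53 CPM (0.16 ± 0.03, adjusted p = 7.99e-04). The coactivator Ppargc1b went from 7.43 ± 3.37 to 4.32 ± 1.11 CPM (-0.71 ± 0.09, adjusted p = 1.44e-05) and Nrf1 changed by -0.23 ± 0.04 (adjusted p = 8.09e-04).

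The nuclear genes for subunits of the respiratory complexes, complex II among them, lay nearer 0 in their median. Of 83 tested, 25 fell and 3 rose, while 13.3% of all genes fell and 13.2% rose. Their median was -0.06 beside -0.42 for the 13 mitochondrial mRNAs and -0.01 for all genes. Sdhd, a membrane subunit of complex II, went from 166 ± 12.4 to 130 ± 7.37 CPM (-0.35 ± 0.04, adjusted p = 6.86e-06). Cox7a1, a complex IV subunit typical of muscle, was at 0.845 ± 0.215 CPM in HepWT and 0.358 ± 0.181 CPM in HepKO (-1.32 ± 0.20, adjusted p = 7.75e-05). Ndufv3, a complex I subunit, rose from 63.3 ± 5.67 to 82.7 ± 3.92 CPM (0.39 ± 0.03, adjusted p = 2.42e-07), and Ndufs5 rose by 0.14 ± 0.04 (adjusted p = 0.0082). The medians were not tested against each other.

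Markers of other liver cells moved with genotype as well, while 13.3% of all genes fell and 13.2% rose. All 10 Kupffer cell markers fell, with a median of -0.40 and summed levels of 305 to 554 CPM in HepWT and 238 to 493 CPM in HepKO, for example C1qb at -0.44 ± 0.07 (adjusted p = 2.01e-04) and C1qa at -0.40 ± 0.08 (adjusted p = 8.66e-04). Of 10 endothelial markers 6 fell, with a median of -0.13 and sums of 669 to 751 and 598 to 711 CPM, Lyve1 by -0.67 ± 0.14 and Cdh5 by -0.16 ± 0.04. Of 10 stellate cell and fibroblast markers 1 rose and 3 fell (median -0.09, sums of 484 to 696 and 473 to 599 CPM), with Col3a1 at -1.14 ± 0.23, Col1a1 at -1.18 ± 0.25 and Reln at 0.22 ± 0.06. Sox9 (1.20 ± 0.14) and Spp1 (1.06 ± 0.18) rose among 6 bile duct markers (median 0.18, sums of 33.2 to 66.0 and 52.5 to 165 CPM).

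Blood cell and other tissue markers were low. Of 9 lymphocyte markers Jchain rose (1.15 ± 0.31) and Gzma fell (-1.75 ± 0.27), with sums of 3.08 to 7.43 and 3.15 to 12.3 CPM. No neutrophil marker of 3, erythroid marker of 6 or adipocyte marker of 4 passed in edgeR, with 0, 2 and 1 at an unadjusted p below 0.05. Their sums were 1.65 to 5.85 and 1.31 to 3.89, 96.6 to 279 and 88.4 to 211, and 7.43 to 14.5 and 5.40 to 17.5 CPM in HepWT and HepKO. The 7 markers of heart and skeletal muscle, another tissue rich in mitochondria, summed to at most 0.229 CPM. The part of cell makeup, and of the loss of albumin RNA from the library total, in the differences of the mitochondrial RNAs was not tested. With TMM scaling computed without the mitochondrial RNAs, mt-Nd1 stood at -0.47 and mt-Co1 at -0.44.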

How the data were processed

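Liver total RNA of 24 samples was measured. By the protocols in the labels, 250 ng of RNA went through Ribo-Zero Gold depletion into a stranded kit with 12 PCR cycles, and pools of 18 libraries were read as pairs of 100 bases. Per the submitters' processing notes, STAR 2.4.0i and the build mm10 were used. The deposited values are counts, whole numbers per gene without normalization. The counting tool, its annotation, its strand setting and its treatment of reads with several places were not given in the sources used here. No column was left out. In 5 columns, those of the 5 shallow HepKO libraries and all replicate 2, the name ends in a suffix with no explanation in the labels.

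The count model was that of edgeR 4.0.16 (limma 3.58.1, R 4.3.3), run over all genes that passed filterByExpr by group (minimum count 10, minimum total 15), with TMM scaling, two-sided quasi-likelihood tests and a Benjamini-Hochberg adjusted p below 0.05 over all 17275 genes. With 1 level per group it gave the genotype difference as a mean over 6 times, at single times and as an interaction with time. With a 24 h cosine per genotype it gave rhythms and their difference. Levels between genes use annotated length. Shares and ratios over members carry no test. The fits were tested on simulated data. The alternatives tried were DESeq2 1.42.0, other scalings, no filter, a replicate block, subsets of libraries, each library left out and, added after the data were seen, nuclear copies added to their gene. Reads copied by PCR and not tagged with molecular identifiers are no independent molecules, so the limit given for a count of 0 covers counting error only.

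Named were all protein-coding, rRNA and tested tRNA members, and of each nuclear list up to 2 called rises and 2 called falls of smallest p. The members, lists and rules were chosen with earlier results of these data known. Positions and sequences are from GENCODE M21 (GRCm38), and whether the authors counted on that release is not known here.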

Additional observations from a re-analysis of the deposited data

Results flagged for a closer look

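mt-Ta, the alanine tRNA gene that did not pass the filter on low counts, had 28 counts over the 24 libraries. Both HepKO libraries lay above both HepWT libraries in CPM at ZT6 (3 and 1 counts against 2 and 1) and below them at ZT10 (0 and 0 counts against 1 and 1). The difference was not tested, and single libraries held 3 counts at most.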

How the results depend on the processing

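The replicate numbers were not treated as pairs. The correlation of replicate differences between genotypes across genes was -0.097 to 0.070 over the 6 times, which cannot show how the samples were collected. With a replicate block 13 members fell and 1 rose, as without it. The falls numbered 11 to 15 and the rises 0 to 1 when 1 library was left out. Falls numbered 8 without the 5 shallow HepKO libraries, and rises 0 there, 0 with HepWT replicate 1 alone and 2 with no filter. Without the 5 shallow libraries their times hold 1 HepKO library each, and fewer of all genes passed there too, as with HepWT replicate 1 alone. Without the 5, mt-Nd1 stood at -0.46, mt-Co1 at -0.44 and mt-Tm at -0.46, beside -0.46, -0.43 and -0.45 with all libraries. mt-Tw moved from -0.38 to -0.29 and mt-Nd4l from -0.76 to -0.68. With no filter, 5 of 27 members passed for the interaction, 1 for rhythm in HepWT, 7 for rhythm in HepKO and 2 for rhythm differences. The calls over all genes were then 1655, 5337, 3176 and 1367 in that order, beside 193, 5246, 2471 and 258 with the filter. Rhythm in HepWT was called for 1 member with library totals and 1 with DESeq2, and for 0 to 1 with 1 library left out. Rhythm in HepKO was called for 0 with scaling computed without the mitochondrial RNAs, 0 without the 5 shallow libraries and 0 to 1 with 1 library left out. Over all genes that scaling gave 2421 such calls and the fit without the 5 shallow libraries 173, beside 2471 in the main fit. The mRNA shares were 2.50% and 1.95% with rRNA left out of the total. mt-Nd1, mt-Co1, mt-Cytb, mt-Nd2, mt-Nd3, mt-Nd4 and mt-Ti kept their call in the 10 alternatives and the 24 fits without 1 library that were run.

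Signs turned for members that were not called. mt-Ty was at 0.0191 with library totals, 0.0240 with HepWT replicate 1 alone, 0.0526 with replicate 2 alone and -0.87 to 0.0967 with 1 library left out. mt-Te was at 0.000300 with library totals, 0.0281 without the shallow libraries, 0.51 with HepWT replicate 1 alone and -0.30 to 0.19 with 1 library left out. With HepWT replicate 1 alone mt-Nd6 was at 0.0463 (-0.17 to 0.0379 with 1 library left out), mt-Ts1 at 0.15 and mt-Tp at 0.0350. Low counts limit the tRNA rows. The cause of these changes was not tested.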
